A study of Mus musculus with 188 samples.

Results

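Brain slice cultures exposed to 200 µM heme-albumin for 24 h were compared with control slices of the same batch, with 10 RNA-seq libraries in each group. These 20 libraries were chosen by the treatment and batch given in their labels and are part of 188 libraries in the series, which asked how hemoglobin, heme and their plasma scavengers act on brain tissue after bleeding. All slices were cut coronally from brains of young adult wild-type C57BL/6J mice of both sexes that had been perfused with saline. Before treatment they were held on membrane inserts, first in medium with horse serum and then in serum-free medium. The controls (0 µM, 24 h) received medium, and the treated slices received hemin bound to human albumin. The contrast therefore holds heme and its carrier together, and their effects cannot be told apart. In each group 5 library names carried the letter M and 5 the letter W. Y-linked genes summed to between 164 and 245 CPM (read counts scaled to the library total) in the M libraries and to at most 0.0837 CPM in the W libraries. A slice holds the mixed cell types of a coronal section after days in culture. The study names the progressive loss of microglia in adult slice cultures as a key limitation. A pair of slices shared each insert, and the labels give neither the section level nor the animal behind each library. The p-values below therefore measure the spread between these libraries, which may be partly technical.

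Heme, the iron porphyrin of hemoglobin, is reactive once set free from the protein. Cells break it down with heme oxygenase into biliverdin, carbon monoxide and iron, store the iron in ferritin or export it through ferroportin, and stop making heme and taking up transferrin iron. Heme also releases BACH1 from DNA and lets NRF2 act on antioxidant genes, while shortage of amino acids or oxidant stress acts through ATF4 on amino acid transport, synthesis and tRNA charging. In the brain, microglia and border macrophages are the cells that engulf red cells and take up hemoglobin, and astrocytes hold much of the glutathione system and clear glutamate.

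Total counts ranged from 11038484 to 29576977 in the controls and from 13421393 to 28939450 under heme-albumin, and mitochondrial genes took 3.07% to 5.57% and 2.55% to 5.04% of them. A set of 5 libraries stood apart (control replicates 13, 16 and 18 and heme-albumin replicates 6 and 9). In these 5 libraries the 13 markers of choroid plexus and ependyma, the cells that line the ventricles, summed to between 1286 and 6045 CPM, against 468 to 672 CPM in the other 15. The high sums came from choroid plexus. Its 8 markers reached 5776 CPM in the controls and 2141 CPM under heme-albumin, and the 5 of ependyma at most 269 and 244 CPM. Microglia and macrophage markers were also higher in these 5 libraries, as given with the plot of marker sums. The counts of most cell-type lists are therefore given with and without them. Of the 4 red cell genes listed, none had enough counts to be tested. In whole slices a lower level can come from fewer cells of a type or from less RNA per cell, which cannot be told apart.

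Heme-albumin moved many genes by small amounts and few by large ones. Of 15198 genes tested with edgeR's quasi-likelihood test, 2004 (13.2%) were called with an adjusted p (Benjamini and Hochberg) under 0.05. Of these 1005 (6.61%) were higher and 999 (6.57%) lower. The median log2 fold change was -0.0098 over all genes tested, 0.28 among genes called higher and -0.41 among genes called lower. Only 88 calls (0.579%) reached 2-fold, 27 of them higher (0.178%) and 61 lower (0.401%). In 122 genes (0.803%) the 10 treated and the 10 control libraries did not overlap, 80 of them higher (0.526%) and 42 lower (0.276%). When the 5 libraries that stood apart were left out, 929 of 15310 genes tested were called, 486 higher and 443 lower. Of the 929, 865 were among the 2004. All 2004 kept their direction there. Of the genes with values below, Bax, C1qa, C1qb, C5ar1, Ccl2, Clec7a, Cth, Cxcl1, Cxcl10, Ftl1, Gpx1, Itgam, Keap1, Lif, Pcbp1, Slc25a37, Tars2, Tbxas1, Tnfrsf1a and Xdh were not called in that smaller fit. The shares over all genes tested, 6.61% higher and 6.57% lower, are the background for the counts given for each list below. A single number in brackets after a gene name is its log2 fold change.

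**Figure D1:**
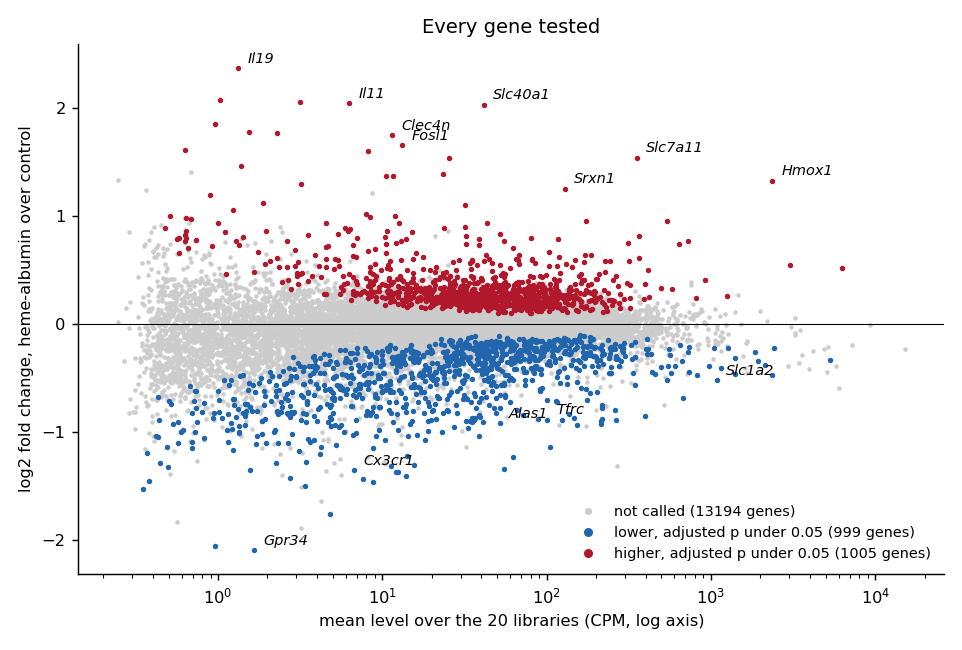
Log2 fold change of heme-albumin over control (vertical axis) against the mean level over the 20 libraries (CPM, log axis) for the 15198 genes tested. Red points are the 1005 genes called higher, blue points the 999 called lower, and grey points were not called. Il19, Il11 and Gpr34 are large changes at a low level, while Hmox1 and Slc7a11 combine a high level with a large change.

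The genes raised most were a mixed group that held an iron exporter, stress enzymes and secreted signals. By log2 fold change among called genes of at least 1 CPM over the 20 libraries, the 15 raised most were Il19, Adh7, Cxcl2, Il11, Slc40a1, Areg, Nkx3-2, Clec4n, Fosl1, Ereg, Slc7a11, Ptgs2, Itprid1, Trib3 and Chac1. Those lowered most included Gpr34, Ccl12, Clec12a, Ms4a6b, Ccl4, Slamf9, Plin4, Ms4a6c, Sla, Car4, Cx3cr1, Cd180, Cd72 and Fgd2. Except for Plin4, which coats lipid droplets, and Car4, a membrane-bound carbonic anhydrase, these lowered genes are known from microglia, macrophages or other leukocytes.

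**Figure D2:**
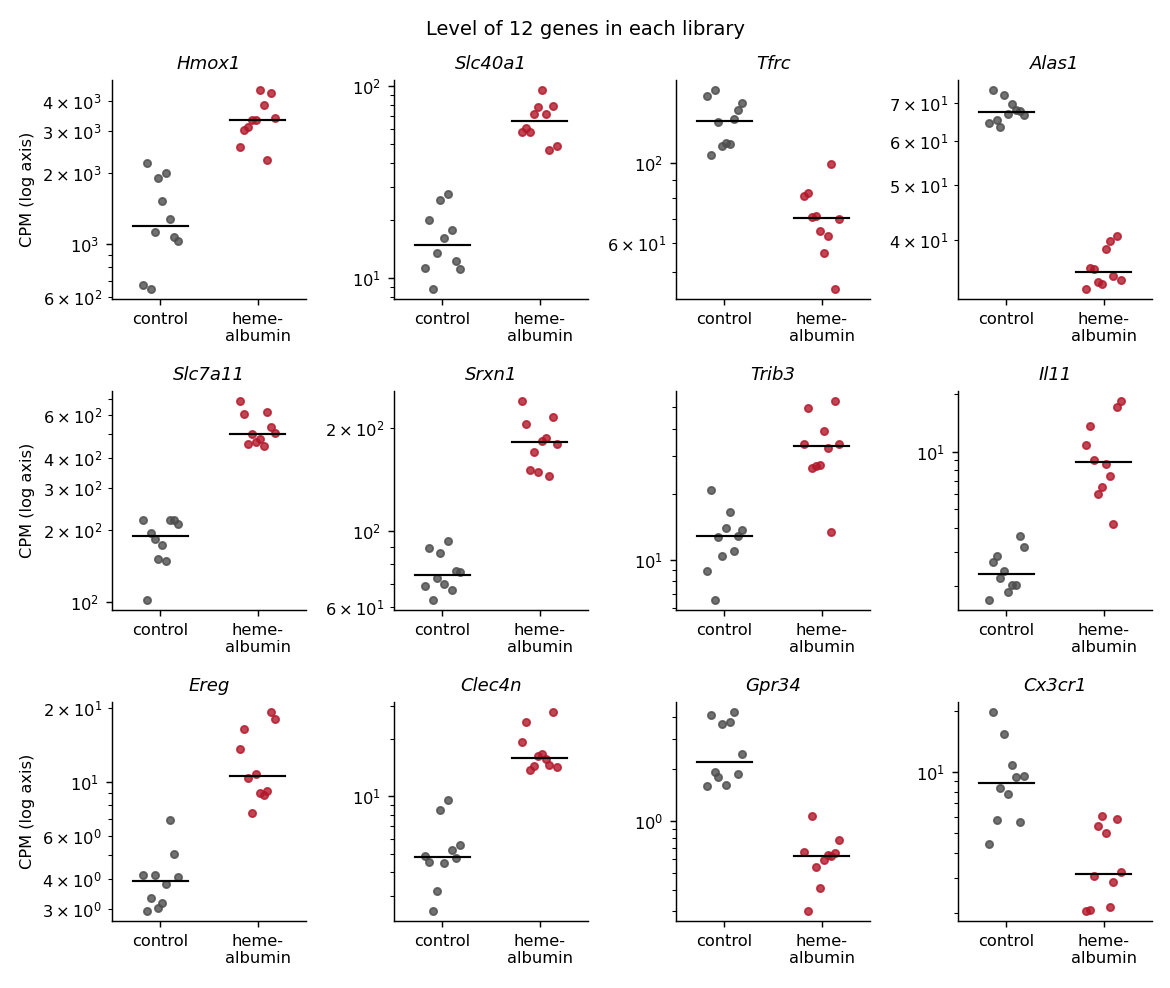
Level (CPM, log axis) of 12 genes in each of the 10 control libraries (grey) and the 10 heme-albumin libraries (red), with the median of each group as a black line. Treated and control libraries do not overlap for Hmox1, Slc40a1, Tfrc, Alas1, Slc7a11, Srxn1, Il11, Ereg, Clec4n and Gpr34, and overlap for Trib3 and Cx3cr1.

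Among genes that handle heme and its iron, those called for breakdown, storage and export were higher, and those for heme synthesis and transferrin uptake were lower. Hmox1, the inducible heme oxygenase that opens the heme ring, lay at 646, 1198 and 2192 CPM (lowest, median and highest library) in the controls and at 2256, 3341 and 4480.2 CPM under heme-albumin. The groups came close but did not overlap, and the log2 fold change was 1.33 with an SE of 0.20 (adjusted p = 2.32e-05). Blvrb, which reduces the biliverdin that follows, rose by 0.81 on the log2 scale (adjusted p = 5.56e-05). Of the 13 genes for heme breakdown and transport 4 rose and none fell, with a median log2 fold change of -0.15. The other 2 that rose were the heme importer of the endolysosome Slc48a1 (0.75) and Abcb6, a porphyrin transporter (0.60, adjusted p = 0.00853). Exons of Slc48a1 overlap those of its antisense neighbour Hdac7. Their reads may be mixed, since the strand setting of the counting is not given.

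Alas1, the enzyme that sets the rate of heme synthesis outside red cells, was lower in every treated slice library. Its level was 63.5, 67.4 and 73.9 CPM in the controls and 32.7, 34.98 and 40.6 CPM in the treated slices. The highest treated library lay far below the lowest control, at a log2 fold change of -0.92 with an SE of 0.060 (adjusted p = 4.41e-12). It was the 1 gene that fell among 10 tested genes of heme synthesis, and none rose. Alad, the next enzyme of the path, differed by 0.18 (adjusted p = 0.122) and Fech, which inserts the iron, by 0.087 (adjusted p = 0.266).

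The receptor for iron uptake and the iron exporter moved in opposite directions. Tfrc, the transferrin receptor, lay at 105, 131 and 159.8 CPM in the controls and at 44.8, 70.6 and 99.6 CPM under heme-albumin. The groups did not overlap, and the log2 fold change was -0.89 with an SE of 0.10 (adjusted p = 5.05e-07). Slc40a1, which encodes ferroportin, the iron exporter, lay at 8.74, 14.9 and 27.5 CPM in the controls and at 46.6, 66.1 and 96.1 CPM in the treated slices. The lowest treated library stood well above the highest control, at a log2 fold change of 2.03 with an SE of 0.19 (adjusted p = 5.80e-09).

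Among 11 genes of iron uptake 1 rose and 3 fell. The metal transporters Slc39a8 and Slc39a14 fell by 0.54 and 0.16 on the log2 scale, and Slc25a37, which carries iron into mitochondria, rose by 0.24. Of 5 tested genes listed under iron storage, which include a receptor for the breakdown of ferritin, 4 rose. Fth1, the ferritin heavy chain, rose from a median of 4844 to 7178 CPM (log2 fold change 0.52, adjusted p = 0.00372), with 7 of 10 treated libraries above every control. The ferritin light chain Ftl1 (adjusted p = 0.0492) rose by 0.55, the ferritin autophagy receptor Ncoa4 by 0.25 and the iron chaperone Pcbp1 by 0.18. Ftl1 has near-identical processed copies, so its value is uncertain, and without 1 library it was still called only where that was heme-albumin replicate 1 or 8 or control replicate 13, 15, 17 or 21. The call of Pcbp1 was lost without control replicate 16, 18 or 19 or heme-albumin replicate 7, and that of Slc39a14 without heme-albumin replicate 1, 3, 4, 7, 8 or 10 or control replicate 17, 19 or 20. None of 5 genes of iron regulation was called. Without the 5 libraries that stood apart 3 of the 24 tested iron genes were higher and 3 lower.

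Neither receptor for heme and hemoglobin complexes was called higher. Cd163, the macrophage receptor for hemoglobin bound to haptoglobin, lay at 1.29, 3.91 and 8.31 CPM in the controls and 1.32, 2.09 and 5.02 CPM under heme-albumin, and fell by 0.91 on the log2 scale (adjusted p = 0.0139). The ranges overlapped. Lrp1, the receptor for heme bound to hemopexin, differed by -0.16 (adjusted p = 0.267). Cd163 was the 1 called gene of 4 tested scavengers.

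Antioxidant genes rose in selected branches, namely cystine uptake, glutathione and thioredoxin coupling and NADPH supply, while many other members of the same families were not called. Promoters of genes from this group and of the groups that follow are shown first, because the genes shown rose and each carries one of the short motifs searched. Sequences are the 250 bases before and 50 bases after the transcription start in RefSeq, build GRCm38.p6, 5′ to 3′ on the strand of the gene. They were searched on both strands for TGACNNNGC, the core of the antioxidant response element, for TGACTCA, the site of AP-1 dimers, and for TGATGNAA, the composite site of ATF4 and C/EBP. Capitals mark 1 kind of motif in each sequence. In Prdx1 (chr4:116685349-116685648, plus strand) they mark the antioxidant core at -133 (its leftmost base, with the start base as 0), and in Srxn1 (chr2:152105274-152105573, plus strand) the AP-1 sites at -102 and -45. The antioxidant core and the AP-1 site can overlap, and 311 of all promoters held both.
Prdx1: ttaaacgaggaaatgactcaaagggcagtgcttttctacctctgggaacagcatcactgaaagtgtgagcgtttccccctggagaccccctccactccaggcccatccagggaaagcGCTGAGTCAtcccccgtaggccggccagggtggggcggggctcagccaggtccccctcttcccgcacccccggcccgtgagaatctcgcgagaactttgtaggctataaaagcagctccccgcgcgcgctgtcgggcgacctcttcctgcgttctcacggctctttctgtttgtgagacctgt
Srxn1: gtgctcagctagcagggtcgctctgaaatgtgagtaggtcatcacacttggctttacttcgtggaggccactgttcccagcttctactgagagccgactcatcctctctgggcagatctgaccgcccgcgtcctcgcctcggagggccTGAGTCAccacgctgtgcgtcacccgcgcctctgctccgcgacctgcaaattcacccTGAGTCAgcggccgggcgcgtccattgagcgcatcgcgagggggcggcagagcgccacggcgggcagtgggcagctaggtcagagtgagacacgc
The antioxidant core was present in 12.4% of all 32851 RefSeq promoters, in 14.1% of those of genes tested, in 16.1% of those of genes called higher and in 12.6% of those of genes called lower. It was in 25% of the promoters of the NRF2-inducible list, 29.7% of those of ATF4 targets and 34.8% of those of AP-1 and early response factors. In the 72 promoters of genes called higher without overlap between groups it was found in 20.8%, and the AP-1 site in 16.7%. The AP-1 site was in 5.2% of all promoters, 3.86% of those of genes tested, 5.07% of those of genes called higher and 5.61% of those of genes called lower, and in 0 of 23 promoters of AP-1 and early response factors. A match of letters is a description of the window and not of a bound site.

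Slc7a11, the cystine side of the exchanger that feeds glutathione synthesis, lay at 102, 189 and 220.2 CPM in the controls and at 446, 504 and 689 CPM under heme-albumin. The lowest treated library was more than 2-fold above the highest control, and the log2 fold change was 1.54 with an SE of 0.12 (adjusted p = 3.23e-10). Its partner chain Slc3a2 rose by 0.81. Both subunits of glutamate-cysteine ligase rose, Gclm by 0.95 and Gclc by 0.53, as did the last enzyme of the path, Gss, by 0.27. All 3 genes of glutathione synthesis were thus called, together with 3 of 5 genes of cystine and cysteine supply (the third was the cysteine-forming enzyme Cth, at 0.82). Among 13 genes that recycle or use glutathione 2 rose and 1 fell. These were the reductase Gsr (0.27), the glutathione-degrading Chac1 (1.38) and the peroxidase Gpx1 (-0.28). Gpx4, the peroxidase that reduces lipid peroxides, differed by -0.093 (adjusted p = 0.567). Of 20 glutathione S-transferases 5 rose, among them Gsta3 (1.12), Mgst2 (0.85) and Gstp1 (0.48), and none fell. Members of the Gsta and Gstp families are close copies of each other, and reads may be shared between them.

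Srxn1, sulfiredoxin, which repairs overoxidised peroxiredoxins, lay at 62.8, 74.7 and 93.8 CPM in the controls and at 145, 182 and 239.6 CPM in the treated slices. No treated library overlapped a control, and the log2 fold change was 1.25 with an SE of 0.086 (adjusted p = 1.42e-11). The peroxiredoxin Prdx1 (0.76, adjusted p = 7.34e-06) and the thioredoxin reductase Txnrd1 (0.61, adjusted p = 8.73e-10) also separated the groups fully. Of 21 genes of the thioredoxin and peroxiredoxin system 5 rose, none fell, and the list's median was 0.02. The other 16 were not called.

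NADPH is the electron donor of both systems, and 5 of 15 genes that produce it rose. They were the pentose phosphate enzymes G6pdx (0.59), Pgd (0.59), Tkt (0.50) and Taldo1 (0.40) and malic enzyme Me1 (0.36). The mitochondrial transhydrogenase Nnt was the 1 that fell. Reads of G6pdx may be mixed with those of antisense Ikbkg.

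Among 26 detoxification genes known to respond to NRF2, 14 rose and 2 fell, with a median log2 fold change of 0.38. Osgin1, an oxidant-induced growth inhibitor, lay at 4.74, 6.201 and 8.28 CPM in the controls and at 13.2, 16.5 and 20.6 CPM under heme-albumin (log2 fold change 1.37, SE 0.10, adjusted p = 5.12e-11). Adh7, an alcohol dehydrogenase that also acts on retinol, was low at 0.155, 0.284 and 0.758 CPM in the controls and reached 1.33, 1.54 and 2.92 CPM (log2 fold change 2.07, SE 0.30, adjusted p = 1.58e-05). Both genes separated the groups without overlap. The epoxide hydrolase Ephx1 (0.58), the esterase Esd (0.64), the quinone reductase Nqo1 (0.85), superoxide dismutase Sod1 (0.41) and catalase Cat (0.38) rose by smaller amounts. Xanthine dehydrogenase Xdh (-0.78) and Akr1b10 fell. Without the 5 libraries that stood apart 14 of the 26 were called higher and none lower.

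Of 12 regulators of the path 5 rose and none fell, 3 without the 5 libraries, at a median of 0.14. Nfe2l2, which encodes NRF2 itself, differed by 0.16 (adjusted p = 0.185), and its partner Maff rose by 0.68 and its adaptor Keap1 by 0.25. Sqstm1, the autophagy receptor that binds KEAP1, rose from a median of 367 to 758 CPM with no overlap (log2 fold change 0.95, adjusted p = 1.21e-08). Its exons overlap antisense Mrnip, and reads may be mixed. Of 5 tested targets of the aryl hydrocarbon receptor 3 rose, the estrogen-hydroxylating Cyp1b1 (0.74), the receptor's repressor Ahrr (0.57) and Tiparp (0.29). The metal buffers went the other way. Mt1 fell by 0.45 and Mt2 by 0.34 on the log2 scale, as did the zinc and manganese exporter Slc30a10 by 0.76, while the zinc importer Slc39a6 rose by 0.33, in a list of 12 metallothionein and zinc genes with 1 higher and 3 lower.

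Genes of the response to amino acid shortage rose in large number. Of 36 genes known as ATF4 targets 22 rose and none fell, with a median log2 fold change of 0.46. By role these were 5 of 8 transcription factors, 7 of 12 amino acid enzymes, 5 of 9 amino acid transporters and 5 of 7 genes of growth control and secretion. The promoters of 3 of them are shown with the composite site of ATF4 and C/EBP in capitals. They belong to Chac1 (chr2:119350992-119351291, plus strand, site at -193), Trib3 (chr2:152344011-152344310, minus strand, site at 14) and Slc7a11 (chr3:50443564-50443863, minus strand, sites at -66 and -47).
Chac1: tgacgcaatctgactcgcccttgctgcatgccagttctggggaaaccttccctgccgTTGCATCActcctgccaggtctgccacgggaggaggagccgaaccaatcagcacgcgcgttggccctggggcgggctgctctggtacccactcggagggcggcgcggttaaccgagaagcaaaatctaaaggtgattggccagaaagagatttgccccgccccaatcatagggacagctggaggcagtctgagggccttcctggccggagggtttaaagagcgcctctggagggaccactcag
Trib3: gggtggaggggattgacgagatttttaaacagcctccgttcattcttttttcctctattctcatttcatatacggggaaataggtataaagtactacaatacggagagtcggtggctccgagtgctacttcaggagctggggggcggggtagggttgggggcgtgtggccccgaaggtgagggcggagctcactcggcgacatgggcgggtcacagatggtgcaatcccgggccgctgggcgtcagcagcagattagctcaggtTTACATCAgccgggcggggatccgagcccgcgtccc
Slc7a11: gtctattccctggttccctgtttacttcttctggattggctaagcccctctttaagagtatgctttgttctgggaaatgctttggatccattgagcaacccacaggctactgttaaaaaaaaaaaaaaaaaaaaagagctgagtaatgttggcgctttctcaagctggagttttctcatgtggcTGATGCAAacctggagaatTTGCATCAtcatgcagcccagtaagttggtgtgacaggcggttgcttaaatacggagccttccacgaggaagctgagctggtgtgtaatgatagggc
The composite site was present in 3.97% of all promoters, in 2.31% of those of genes tested, in 10 of 37 promoters of the listed ATF4 targets (27%) and in 5 of 12 promoters of cytosolic tRNA synthetases (41.7%). It was in 2.84% of the promoters of all genes called higher and in 2.45% of those called lower.

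Atf4 itself rose by 0.48 (adjusted p = 0.000134). Trib3, a pseudokinase that feeds back on ATF4, lay at 6.53, 12.9 and 20.99 CPM in the controls and at 13.4, 33.2 and 53.6 CPM under heme-albumin (log2 fold change 1.39, SE 0.20, adjusted p = 1.67e-05). Chac1, which splits glutathione, lay at 3.91, 6.01 and 7.89 CPM and 6.27, 14.6 and 25.8 CPM (log2 fold change 1.38, SE 0.19, adjusted p = 7.34e-06). In both genes 9 of 10 treated libraries were above every control. The lowest treated Trib3 value was heme-albumin replicate 8. Asns, asparagine synthetase (0.60), Slc7a1, an arginine and lysine carrier (0.67), Sesn2, a leucine sensor (0.70), and Eif4ebp1, which holds back translation initiation (0.73), rose as well, Asns and Slc7a1 without overlap. Without the 5 libraries that stood apart 17 of the 36 were called higher, with a median of 0.36.

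Enzymes that charge tRNA in the cytosol rose together by small amounts. Of 20 cytosolic tRNA synthetases 17 were called higher and none lower, at a median log2 fold change of 0.29. Nars, for asparagine, rose by 0.42 (adjusted p = 5.05e-07), with 160, 175 and 188 CPM in the controls and 203, 234 and 276 CPM in the treated slices, and no overlap. Mars, for methionine, rose by 0.45 and Aars, for alanine, by 0.38. Mars overlaps antisense Ddit3 and Aars shares its strand with Exosc6. Of the 17 synthetases of mitochondria only Tars2 was called (0.24), and the list's median was 0.15. Leaving out control replicate 15 raised that count to 4. In the fit without the 5 libraries 12 cytosolic synthetases were higher and none of the mitochondrial ones.

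Most genes of the proteasome rose, while chaperones of the endoplasmic reticulum (ER) were called lower or not at all. Of 45 proteasome genes 28 were higher and 1 lower, at a median log2 fold change of 0.18. The calls covered 11 of 14 genes of the core, 16 of 18 of the regulatory particle and 1 of 8 assembly factors. Psmd11 of the regulatory lid lay at 90.4, 102 and 111 CPM in the controls and at 122, 127 and 141 CPM under heme-albumin, without overlap, a log2 fold change of 0.35 with an SE of 0.040 (adjusted p = 3.45e-07). The ubiquitin receptors Psmd4 (0.32) and Adrm1 (0.39) rose by similar amounts. None of the 5 genes of the immunoproteasome rose and 1 fell, and its subunit Psmb8 differed by -0.23 (adjusted p = 0.319). Leaving out the 5 libraries left 14 of the 45 called higher at a median of 0.16.

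Of 28 genes for ER chaperones and the unfolded protein response 14 fell and none rose (median -0.17). Calr, the calcium-binding chaperone calreticulin, lay at 858, 948 and 1070.1 CPM in the controls and at 593, 697 and 822 CPM in the treated slices. Every treated library lay below every control (log2 fold change -0.47, SE 0.050, adjusted p = 9.88e-08). Hspa5, the master ER chaperone BiP, also separated the groups, at 649.6, 690.1 and 713 CPM in the controls and 461, 513 and 621 CPM under heme-albumin (log2 fold change -0.39, SE 0.044, adjusted p = 3.43e-07). Hsp90b1 fell by 0.45, the disulfide isomerase Pdia4 by 0.39 and the degradation factor Derl3, at under 2 CPM in all libraries, by 1.098 on the log2 scale. Of 4 sensors and their transcription factors only Xbp1 was called (-0.24). With the 5 libraries left out 12 of the 28 were lower.

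Cytosolic chaperones rose in part, with 7 of 24 heat shock genes higher, none lower and a median of 0.10. Examples were Hspa1b (0.77, adjusted p = 0.0161), whose near-identical copy Hspa1a may share its reads, the large chaperone Hsph1 (0.25) and the co-chaperone Dnajb1 (0.23). Hspa1b was not called with the mitochondrial share as a covariate. Of 23 genes of sterol synthesis and uptake 10 rose and none fell (median 0.19), among them lanosterol synthase Lss (0.38, adjusted p = 3.45e-07), without overlap between groups. The fit without the 5 libraries called 5 of the 23 higher. The lipogenic regulator Thrsp fell by 0.52, 1 of 2 genes that fell among 12 of fatty acid synthesis.

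Of 22 known p53 targets 9 rose and 1 fell. They included the cell cycle inhibitor Cdkn1a (0.41), the growth arrest gene Gadd45a (0.41) and Bax, which opens the mitochondrial membrane in apoptosis (0.44), while Sesn1 fell by 0.43. Sesn2 counts in this list and among the ATF4 targets. None of 34 genes of S phase and none of 40 genes of mitosis was called. Hypoxia-inducible targets gave 0 higher and 3 lower of 23, the MYC antagonist Mxi1 among them (-0.31), where 6.57% of all genes tested were called lower.

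Among ferroptosis genes, 3 of 23 were higher and 4 lower. The highest was Ptgs2, which is described with the prostaglandins. Its 9 protective genes gave 2 higher and 1 lower, and the median of the list was -0.05. Slc7a11, Chac1, Hmox1 and Tfrc were not part of this list and are counted in the lists above.

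**Figure D3:**
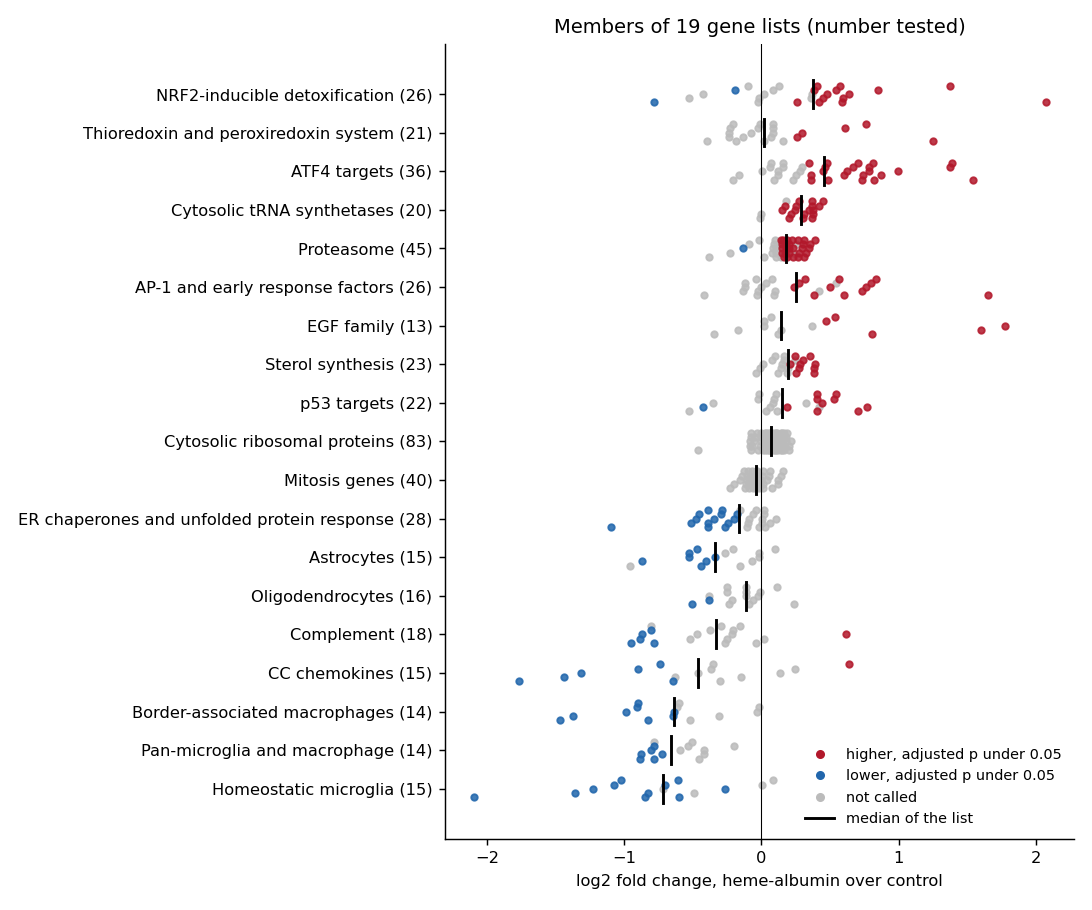
Log2 fold change of heme-albumin over control (horizontal axis) for every tested member of 19 gene lists, with the number tested in brackets. Red points were called higher, blue points lower and grey points not called, and the black bar is the median of the list. NRF2-inducible genes, ATF4 targets, cytosolic tRNA synthetases and proteasome genes lie mostly to the right, and ER chaperones, microglia and macrophage lists mostly to the left.

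Many early response transcription factors and most ligands of the EGF family were called higher. Of 26 AP-1 and early response factors 12 rose and none fell, at a median of 0.26. Fosl1, an AP-1 subunit, lay at 4.79, 6.18 and 9.48 CPM in the controls and at 12.5, 18.6 and 26.5 CPM under heme-albumin. The groups did not overlap (log2 fold change 1.65, SE 0.13, adjusted p = 1.47e-10), and reads of Fosl1 may be mixed with those of antisense Ccdc85b. Myc (0.61), Klf4 (0.73), Nr4a3 (0.84), the synaptic activity gene Arc (0.57) and Jun (0.28) rose by less. The fit without the 5 libraries called 10 of the 26 higher.

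Of 9 tested ligands of the EGF family 5 rose and of 4 receptors none was called. Areg, amphiregulin, lay at 0.337, 0.649 and 1.104 CPM in the controls and at 1.3997, 2.14 and 3.73 CPM in the treated slices (log2 fold change 1.78, SE 0.23, adjusted p = 3.41e-06). Ereg, epiregulin, lay at 2.93, 3.92 and 6.97 CPM and 7.405, 10.5 and 19.3 CPM (log2 fold change 1.6, SE 0.19, adjusted p = 5.54e-07). Neither overlapped between the groups. Nrg1 rose by 0.80, Tgfa by 0.54 and Btc by 0.47. Btc lost its call without heme-albumin replicate 1, 2, 3, 6 or 9 or control replicate 13, 14, 15, 19, 20 or 21. Hbegf differed by 0.37 (adjusted p = 0.068) and the receptor Erbb4 by -0.34 (adjusted p = 0.0616). Erbb4 was called lower by DESeq2 (-0.35, adjusted p = 0.0403), in the fit on all 60 libraries of the batch (adjusted p = 0.0409) and without control replicate 15, 20 or 21 or heme-albumin replicate 9.

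Cytokine genes split into some that rose and others that fell. Of 17 interleukin and TNF family ligands 5 were higher and 2 lower. Il11, a cytokine of the gp130 family, lay at 1.68, 2.29 and 3.61 CPM in the controls and at 4.18, 8.83 and 18.4 CPM under heme-albumin, with no overlap (log2 fold change 2.04, SE 0.22, adjusted p = 1.10e-07). Its promoter (chr7:4778092-4778391, minus strand) is shown with the AP-1 site at -98 in capitals.
Il11: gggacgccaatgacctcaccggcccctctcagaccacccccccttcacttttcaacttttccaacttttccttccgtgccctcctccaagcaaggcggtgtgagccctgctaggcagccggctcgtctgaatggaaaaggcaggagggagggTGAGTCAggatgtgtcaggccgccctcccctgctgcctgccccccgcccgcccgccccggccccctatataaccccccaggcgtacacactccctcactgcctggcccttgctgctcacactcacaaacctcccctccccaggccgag
Il19, of the IL-10 family, was low, at 0, 0.358 and 0.931 CPM in the controls and 0.365, 1.801 and 5.24 CPM in the treated slices (log2 fold change 2.37, SE 0.45, adjusted p = 0.000623). In 8 of 10 treated libraries it was above every control. Lif, another gp130 ligand, rose by 0.79, and Il18, an inflammasome cytokine, fell by 0.33 on the log2 scale. The TNF receptor Tnfrsf1a rose by 0.18 (adjusted p = 0.00346), but was not called with GC content and length corrected (0.11, adjusted p = 0.0864).

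Chemokine genes were called in both directions. Of 10 tested CXC ligands 3 rose and 1 fell, and of 2 CXC receptors 1 fell. Those that rose were the neutrophil attractants Cxcl2 and Cxcl1 (0.89) and the T cell attractant Cxcl10 (1.01), whose exons overlap antisense Art3. The ligand that fell was Cxcl16, which lost its call in some fits without 1 library. Cxcl2 lay at 0.368, 1.11 and 2.16 CPM in the controls and at 1.67, 3.11 and 13.3 CPM under heme-albumin (log2 fold change 2.06, SE 0.41, adjusted p = 0.001), and 7 of 10 treated libraries were above every control. Of 15 CC chemokines and receptors 1 rose and 6 fell (median -0.46). The monocyte attractant Ccl2 was the 1 that rose (0.64, adjusted p = 0.0138). Ccl12 (-1.76), Ccl4 (-1.44) and Ccl9 (-0.90) fell. Cxcl1, Cxcl10 and Ccl2 were not called without the 5 libraries that stood apart, where 1 CXC gene was higher and 4 CC genes were lower.

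Prostaglandin genes also split. Ptgs2, the inducible cyclooxygenase, lay at 8.44, 11.4 and 24.7 CPM in the controls and at 18.6, 31.1 and 80.5 CPM in the treated slices (log2 fold change 1.54, SE 0.24, adjusted p = 7.13e-05). The ranges overlapped, with 7 of 10 treated libraries above every control. Downstream, the prostaglandin D synthase Hpgds (-1.08), thromboxane synthase Tbxas1 (-0.86) and the degrading enzyme Hpgd (-0.73) fell. Of 20 prostaglandin and leukotriene genes 3 were higher and 7 lower. Without control replicate 13 only 4 were lower, and without the 5 libraries 1 was higher and 3 were lower, with Tbxas1 no longer called.

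Many genes of microglia and border macrophages fell. Of 15 tested genes of homeostatic microglia 11 fell and none rose, with a median log2 fold change of -0.72. Gpr34, a lysophosphatidylserine receptor of microglia, lay at 1.596, 2.197 and 4.29 CPM in the controls and at 0.299, 0.631 and 1.07 CPM under heme-albumin. It separated the groups fully (log2 fold change -2.096, SE 0.23, adjusted p = 1.56e-07). Cx3cr1, the fractalkine receptor, lay at 4.39, 8.88 and 19.8 CPM in the controls and at 2.05, 3.12 and 6.09 CPM in the treated slices (log2 fold change -1.36, SE 0.29, adjusted p = 0.00209). These ranges overlapped, with 6 of 10 treated libraries below every control. Fcrls (-1.22), Tmem119 (-1.08), P2ry12 (-0.61) and Olfml3 (-0.60) fell by varied amounts.

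Broader markers of the lineage had fewer and less stable calls. Of 14 genes shared by microglia and macrophages 6 fell (median -0.66), among them the integrin Itgam (-0.88) and the complement gene C1qb (-0.88). This count dropped to 2 without heme-albumin replicates 1, 2 or 10 or control replicates 16 or 18, and to 3 without heme-albumin replicates 3 or 8 or control replicates 13 or 17. Of 14 genes of border-associated macrophages 8 fell (median -0.64), including the mannose receptor Mrc1 (-0.83), Stab1 (-0.90) and Ms4a6b (-1.47). Of 17 genes linked to disease-associated microglia 2 fell and none rose (median -0.26), with 4 lower without control replicate 12 or heme-albumin replicate 6 and 5 lower without heme-albumin replicate 9. The lipid receptor Trem2 differed by -0.35 (adjusted p = 0.367). Of 10 Toll-like receptors 7 fell, for example Tlr7 (-0.88), at a median of -0.72, and of 11 adaptors 2 fell. Without control replicate 16 the receptors and adaptors gave 5 lower calls in all. Of 18 complement genes 5 fell and 1 rose, with C1qa (-0.80) and the anaphylatoxin receptor C5ar1 (-0.87) among those that fell. C1qa was not called, and the count was 3, without any one of heme-albumin replicates 1, 2, 3, 8 and 10 or control replicates 13, 16, 17 and 18, and 9 without heme-albumin replicate 9. With the library code as a replicate block C1qa changed by -0.70 and was not called (adjusted p = 0.0553).

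A single myeloid lectin was called higher, and most of those tested were not called. Clec4n, the C-type lectin Dectin-2, lay at 2.48, 4.81 and 9.55 CPM in the controls and at 13.7, 15.98 and 27.8 CPM under heme-albumin, with no overlap (log2 fold change 1.75, SE 0.19, adjusted p = 2.12e-07). Of 8 tested myeloid lectins it was the 1 that rose, while Clec12a (-1.503) and Clec7a (-0.89) fell. Its genomic neighbour in the family, Clec4d, differed by 0.37 (adjusted p = 0.301).

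The myeloid lists were also read without the 5 libraries that stood apart. This fit of fewer libraries called 443 of 15310 genes tested lower, against 999 of 15198 in the fit that held them. In the controls, microglia and macrophage markers summed to between 2857 and 3888 CPM in the 3 such libraries and to between 978 and 2366 CPM in the other 7. Under heme-albumin they summed to between 1945 and 1981 CPM in the 2 such libraries and to between 706 and 1482 CPM in the other 8. For homeostatic microglia the sums were 1444 to 1675 CPM and 959 to 1320 CPM in the controls and 897 to 1026 CPM and 795 to 1021 CPM under heme-albumin. Without the 5 libraries 6 of 15 homeostatic genes were lower (median -0.54), 0 of 14 of the shared markers (median -0.44), 6 of 14 border macrophage genes (median -0.46) and 2 of 21 Toll-like receptor and adaptor genes. Of genes of disease-associated microglia none was called there, and 1 complement gene was lower. Gpr34 and Cx3cr1 were still called, and C1qb, Itgam, C5ar1 and Clec7a were not.

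**Figure D4:**
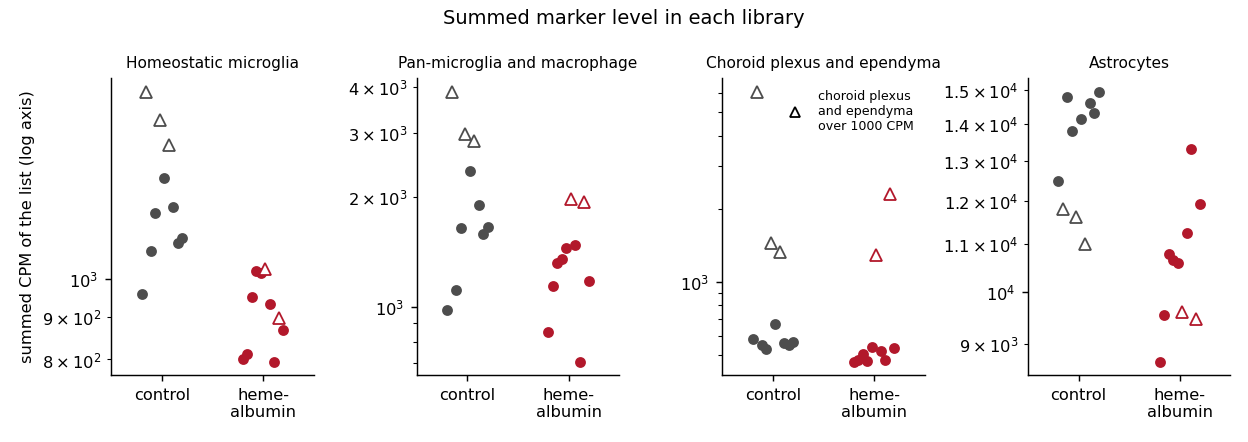
Summed level (CPM, log axis) of the markers of homeostatic microglia, of microglia and macrophages in general, of choroid plexus and ependyma and of astrocytes in each control (grey) and heme-albumin (red) library. Open triangles are the 5 libraries in which choroid plexus and ependyma markers summed to over 1000 CPM. Triangles are the highest points of each group for microglia and macrophages in general, while for homeostatic microglia 1 of the 2 treated triangles lies among the other treated libraries, and the other treated libraries lie mostly below the other controls for homeostatic microglia.

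Several astrocyte genes fell, whereas most genes of neurons and oligodendrocytes were not called. Of 15 astrocyte markers 7 fell and none rose (median -0.34), and 7 also fell without the 5 libraries (median -0.35). Slc1a2, the main glutamate transporter of astrocytes, lay at 1011, 1251 and 1532 CPM in the controls and at 772, 914 and 985 CPM under heme-albumin. Every treated library was below every control (log2 fold change -0.52, SE 0.084, adjusted p = 7.75e-05). The water channel Aqp4 fell by 0.52, the glycolytic enzyme Aldoc by 0.44 and the neurotensin receptor Ntsr2 by 0.87 on the log2 scale. Gfap, the filament protein of astrocytes, fell by 0.34 (adjusted p = 0.0328), and this call was lost without heme-albumin replicate 1, 2, 4 or 6 or control replicate 14, 19, 20 or 21. Of 18 genes of reactive astrocytes 3 rose and 1 fell, and without the 5 libraries 0 and 1.

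Of 22 neuron markers 2 rose and none fell, at a median of -0.08. These were the deubiquitinase Uchl1 (0.56) and the neurofilament Nefm (0.86), which overlaps antisense Nefl. Rbfox3, which encodes the nuclear antigen NeuN, was low in all slices, at 1.76, 2.23 and 5.75 CPM in the controls and 1.31, 2.52 and 3.81 CPM under heme-albumin, with a difference of -0.15 (adjusted p = 0.747). Tubb3, a neuronal tubulin, differed by 0.21 (adjusted p = 0.406). Among 21 neuropeptide genes Vgf was the only call (0.84). Of 42 glutamate and GABA receptor genes 5 fell and none rose, where 13.2% of all genes tested were called and 6.57% were called lower. The AMPA receptor subunit Gria1 was at 29.01, 34.1 and 45.4 CPM in the controls and 18.5, 24.4 and 27.5 CPM in the treated slices. Its groups did not overlap (log2 fold change -0.59, SE 0.10, adjusted p = 0.000194). Kcna2, a potassium channel of axons, also fell without overlap (-0.43, adjusted p = 1.67e-05), in a list of 76 potassium channels with 2 higher and 7 lower. In the fit without the 5 libraries 2 neuron markers were higher and the median of the list turned positive (0.16), and 2 of the receptor genes and 4 of the potassium channels were lower.

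In the oligodendrocyte lineage 2 of 16 mature markers fell, where 6.57% of all genes tested were called lower. Aspa, which splits N-acetylaspartate, was at -0.51. Olig2, a transcription factor of the lineage, rose by 0.46 (adjusted p = 0.000972), in a list of 11 precursor genes with 2 higher and 1 lower. Of 17 endothelial genes 1 fell, 4 without heme-albumin replicate 9, and the tight junction gene Cldn5 differed by -0.26 (adjusted p = 0.358). Of 10 mural cell genes 2 fell, 4 without control replicate 15, among them Tagln (-0.57), and none of 9 genes of meningeal fibroblasts was called (median -0.56). Without the 5 libraries 1 mature oligodendrocyte, 1 endothelial and 2 mural genes were lower and 1 precursor gene was higher. Col1a2, of fibroblast collagen, differed by -0.95 (adjusted p = 0.117). Of 21 matrix proteases and inhibitors 4 fell and 1 rose. The 4 became 7 without control replicate 14. The urokinase Plau fell (-0.78).

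Large housekeeping systems gave few or no calls. None of 83 cytosolic ribosomal protein genes was called (median 0.07), and 1 of 81 nuclear and 1 of 9 mitochondrial genes of the respiratory chain was lower. Interferon-stimulated genes gave 0 higher and 2 lower of 33, and antigen presentation genes gave none of 10. None of the genes that mark hypothalamus, thalamus, cortex and hippocampus or cerebellum was called, and 1 of 8 striatal genes was lower.

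The same genes are given at the other doses of the batch, each with 10 libraries, next to 200 µM. All doses were set against the same 10 controls, so their differences from control are not independent, and the values stand side by side without a test. Hmox1 had a mean of 1334 ± 527 (SD) CPM at 0 µM, 1848 ± 405 at 12.5 µM, 2743 ± 805 at 50 µM, 3389.9 ± 699 at 200 µM and 4614 ± 1304 at 400 µM. Slc40a1 went from 16.3 over 23.5, 42.99 and 67.2 to 86.01 CPM in the same order of doses. For Il11 the means were 2.43, 3.499, 5.28, 10.2 and 24.97 CPM. In these 3 genes each dose had a higher mean than the one below it. Ptgs2 stayed at 12.99 and 13.4 CPM at the lowest levels and reached 37.8 ± 20.2 and 86.3 ± 66.4 CPM at 200 and 400 µM, with wide spread. Tfrc had means of 130.03, 105, 85.6, 70.97 and 56.2 CPM, each below the one before.

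Other genes had their outermost mean at 200 µM or changed little beyond it. Alas1 was at 67.5 ± 2.78 CPM without heme, 53.9 at 12.5 µM and 47.6 at 50 µM, and at 35.99 ± 2.76 and 35.8 ± 4.301 CPM at 200 and 400 µM. The last 2 means differed by less than their spread. Gpr34 had means of 2.68 CPM without heme, 0.629 ± 0.21 at 200 µM and 0.677 ± 0.366 at 400 µM. Cx3cr1 was at 9.61, 6.49, 6.74, 3.797 and 4.71 CPM. Cyp1b1 had its highest mean at 200 µM, with 801 ± 111 CPM against 706 ± 239 at 400 µM, within the spread.

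**Figure D5:**
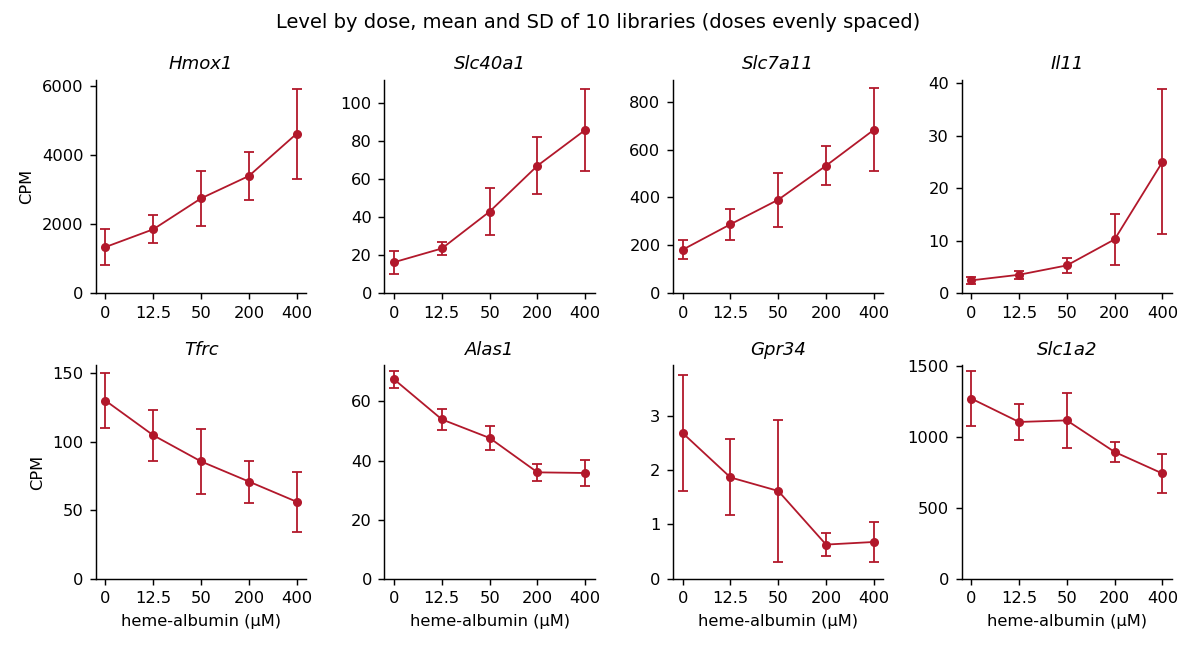
Mean level with SD (CPM, vertical axis from 0) of 8 genes at 0, 12.5, 50, 200 and 400 µM heme-albumin, 10 libraries at each dose, with doses spaced evenly. Hmox1, Slc40a1, Slc7a11 and Il11 have higher means at each higher dose, Tfrc lower ones, and Alas1 and Gpr34 are nearly level from 200 to 400 µM.

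The response in the M and in the W libraries, 5 against 5 in each, was also estimated in a joint fit of the 20 libraries. No gene of 14807 was called for a difference between the letters (0% called), while 193 had an unadjusted p under 0.05 in edgeR's quasi-likelihood test. DESeq2 also called none, with 212 under 0.05. Each count is below a share of 0.05 of the genes, the share expected by chance where nothing differs. With 5 libraries of each letter in a group, an absent call does not show that the responses were equal. Hmox1 changed by 1.23 in M and 1.41 in W libraries on the log2 scale, Slc7a11 by 1.68 and 1.41, and Gpr34 by -2.16 and -2.04. The 3 genes with the smallest p of the difference were Car12 (-2.78 in M and 1.197 in W), Gimap9 (-1.399 and 0.10) and Orm2 (-5.37 and 2.35). Their adjusted p was 0.99998. Car12 and Orm2 were high in few libraries of each group, with highest values of 75.3 and 69.6 CPM and medians of 4.38 and 0.7 CPM in the controls. The highest Car12 control was replicate 13. The 5 libraries that stood apart were spread unevenly over the letters. Control replicates 13 and 16 carried M, and control replicate 18 and heme-albumin replicates 6 and 9 carried W. What this adds to differences between the letters was not tested.

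Genes called in each direction differed in base composition. The median GC content of the transcripts was 49.7% over all genes tested, 52.97% among genes called higher and 47.3% among those called lower, with median lengths of 3411, 3246.5 and 3501 bases. With GC content and length corrected in the fit 2418 genes were called, 46.6% of them higher, against 50.2% without the correction. With this correction Jun (0.196, adjusted p = 0.0751), Tnfrsf1a and Pcbp1 (0.11, adjusted p = 0.181) were no longer called, and Lrp1 was called lower (-0.24, adjusted p = 0.0427). Reads of Cd180, Cd72, Plin4, Stab1, P2ry12, Tagln and Gss may be mixed with those of antisense neighbours. These are Mast4, Tesk1, Hdgfl2, Nt5dc2, Med12l, Pcsk7 and Acss2, in that order.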

How the data were processed

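RNA was sequenced from poly(A)-selected libraries, and the deposited files hold raw counts per gene and library, which the authors made with featureCounts on GRCm39 (per the submitters' processing notes). The aligner, the annotation and the strand setting are not given in the sources used here. Identifiers were named through GENCODE symbols (25600 of 25655 matched). Genes were kept by filterByExpr (10 counts, 15 in all) and fitted with edgeR 4.0.16 (TMM scaling, quasi-likelihood F test, R 4.3.3) over 30 libraries, the 20 compared and 10 of heme-hemopexin that share the batch and only help to estimate the spread. P-values were adjusted by Benjamini and Hochberg over all genes tested, and a gene was called at an adjusted p under 0.05. The script was tested on simulated data. Levels are CPM on TMM-scaled library sizes and compare libraries within a gene, not genes with each other. SE is that of the log2 fold change. The depth of 11038484 to 29576977 counts leaves genes under 1 CPM imprecise. No pair of libraries within a group agreed within sampling noise (90 pairs, lowest chi-square per degree of freedom 3.34).

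Members and gene lists (67 lists, 1509 genes) were chosen with earlier results of these data known, and no list was tested as a set. Named genes were the 15 raised most and 15 lowered most of at least 1 CPM, up to 6 members of each list with the smallest p and the lead member of each role, genes the study names, and the 3 with the smallest p of the difference between M and W. Bax, Cat, Cth, Derl3, Ftl1, Gpx1, Gss, Pcbp1, Slc39a14, Tmem119 and Xdh were named after their values were seen. A few genes that this rule names are not reported here. Alternatives were RLE scaling, no filter, 10 counts in every library, other sets of libraries, the letter, the library code or the mitochondrial share as terms, correction for GC content and length, DESeq2 1.42.0, and each library left out in turn. The mitochondrial term and the fit without the 5 libraries were added after seeing the data. Promoters were taken from RefSeq for 11470 of the 15198 genes tested. Their coordinates are of GRCm38.p6, which is not the build of the counts.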

Additional observations from a re-analysis of the deposited data

Results flagged for a closer look

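A group of 10 libraries was marked where the highest or lowest library stood off from its nearest neighbour by more of the whole range than Dixon's 95% critical value allows (on log2 of CPM plus 0.1). Of 366 groups 22 were marked, 7 in the controls and 15 under heme-albumin. Chance marks about 1 in 20 groups, and genes of 1 library are not independent. Heme-albumin replicate 8, which also had the highest mitochondrial share of the treated libraries (5.04%), held 10 of the 22. The gap as a share of the range is given in brackets. In this library Vgf (0.699), Slc48a1 (0.560), Nefm (0.543), Trib3 (0.489), Car4 (0.488), Mgst2 (0.487) and Tubb3 (0.471) were lowest and Hsp90b1 (0.544), Me1 (0.517) and Aqp4 (0.513) highest. For Vgf its level was 23.3 CPM against 58.1 CPM in the next treated library, for Trib3 13.4 against 26.5 CPM. Without this library 2402 genes were called in all.

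Control replicate 13, 1 of the 5 libraries that stood apart, was lowest for Slc7a11 (0.495) and Txnrd1 (0.467) and highest for Car12 (0.504) and Gpx4 (0.504). Control replicate 14 was lowest for Il19 (0.556), Cd163 (0.474) and Ccl2 (0.473). Heme-albumin replicate 1 was highest for Slc39a6 (0.561), Adh7 (0.555) and Psmd11 (0.516) and lowest for Mt2 (0.504). Heme-albumin replicate 6 was highest for Fgd2 (0.562). What set these libraries apart was not tested.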

How the results depend on the processing

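Against 2004 calls, other scalings, filters, covariates and DESeq2 gave 1685 to 2418. The fit on the 20 libraries alone gave 1540, of which 1526 were among the 2004, and that on all 60 libraries of the batch 2113. Counts that moved by over 1.5 times were those without the 5 libraries (929 called, 486 higher, 443 lower), in the M libraries alone (527 called, 291 higher, 236 lower) and in the W libraries alone (144 called, 92 higher, 52 lower), which hold fewer libraries. Calls of at least 2-fold numbered 32 in W alone and 54 with 10 counts required in every library, which tests fewer genes. Leaving out 1 library gave 1482 to 2402 calls, 754 to 1174 higher, 720 to 1228 lower and 73 to 127 of at least 2-fold. Of 183 genes followed across these alternatives 165 were called and none of these reversed. Of the 165, 33 lost the call under another scaling, filter, covariate or fit or without the 5 libraries, and 12 without 1 library (Btc, C1qa, C1qc, Cfb, Cxcl16, Ftl1, Gfap, Hspa1a, Ly6c1, Olig1, Pcbp1 and Slc39a14). In M alone 100 were called and in W alone 56. Direction changed for genes that were not called: Car12 (1.19 in W alone, -1.53 to 0.26 without 1 library), Orm2 (2.38 and -3.24 to 1.12), Ttr (2.43 and -2.93 to 1.11), Gimap9 (0.090 in W alone) and Rbfox3 (0.14 in W alone, -0.23 to 0.041 without 1 library, 0.15 without the 5 libraries), each turning positive without control replicate 13 except Gimap9. With the library code as a replicate block 2177 genes were called. The 11 same-code pairs had a median correlation of 0.35 (lowest -0.40, 8 over 0.1), against -0.022 for other pairs, and 2 of 10 controls and 5 of 10 treated libraries matched their own code best. Same-code libraries thus tended to deviate together, but since not every pair was over 0.1 the codes were not taken as a pairing. C1qa and C1qc lost their calls under the block. Depth limits genes under 1 CPM, and the low Il19, Adh7 and Gpr34 rest on few reads.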

Other observations

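Lists of genes without a place in the comparisons above are given here as counts. Of 58 tested lysosome genes 1 rose and 6 fell, at a median log2 fold change of -0.14. Over all genes tested 13.2% were called, 6.61% higher and 6.57% lower. None of the 21 subunits of the V-ATPase, the pump that acidifies lysosomes, was called. Lower calls in this list numbered 10 without any one of control replicates 12, 14 and 15, and 1 without the 5 libraries that stood apart. Targets of the LXR receptors, which sense sterols, gave 0 higher and 1 lower of 6 (median -0.26), and none was called without the 5 libraries.

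Of 13 genes of the neuronal injury response 2 rose and none fell (median -0.03), and of 34 voltage-gated sodium and calcium channels 2 fell, and none without the 5 libraries. Of 40 collagen genes 1 fell (median -0.28). None of 13 markers of choroid plexus and ependyma was called (median -0.77), although single libraries differed widely: Ttr, the transthyretin of the choroid plexus, lay at 0.0798, 0.394 and 3218 CPM (lowest, median and highest control) and at 0.0452, 0.317 and 1092 CPM under heme-albumin (log2 fold change -1.32, adjusted p = 0.656).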
